A study of Mus musculus with 32 samples.

Results

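Late-closing fibroblast sites are stretches of DNA that were open in fibroblasts and in the Thy1+ and SSEA1-Thy1- cells of reprogramming. They were closed in cells that had switched on the pluripotency reporter, where closed means absent from the peak list. They were chosen from ATAC-seq peak lists of 5 control groups: day 0 cells, Thy1+ cells, SSEA1-Thy1- cells, SSEA1+ cells and GFP+ cells. Overlapping 400 bp intervals of these lists on chromosomes 1 to 19 and X were merged into 259154 sites. A site was late-closing if the day 0, Thy1+ and SSEA1-Thy1- lists held it and the GFP+ list did not, with the SSEA1+ list left free. This gave 29367 late-closing sites, which is 11.3% of all sites.

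The study followed mouse embryonic fibroblasts of the OG2 line, which carry a GFP reporter of Pou5f1, through reprogramming by Oct4, Sox2, Klf4 and c-Myc (OSKM). Its 32 samples fell into 15 groups, and each group had 1 peak list that pools its samples. The control and the CTCF shRNA were each given at day 0 and in 4 sorted populations. The Thy1+ groups held 3 samples each, from days 3, 6 and 9. The SSEA1-Thy1- and the SSEA1+ groups each held 2 samples, from days 6 and 9, and the GFP+ groups held 2 samples each from day 12. The control shRNA is directed at luciferase by its name (shLuci). For the sorted cells the factors came from an inducible TetOn lentivirus that carries all 4 of them, together with rtTA and doxycycline, and otherwise from retroviruses. The shRNAs and CTCF were also delivered by retrovirus. The day 10 groups held unsorted OSKM cells with a control vector, with CTCF overexpression, or with CTCF overexpression plus Smarca5 shRNA, and the day 12 groups held unsorted cells with control shRNA or Smarca5 shRNA. Each of these 5 groups had 2 samples. Infected cells were kept in stem cell medium with vitamin C.

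A fibroblast becomes a pluripotent cell by closing the enhancers that hold its own identity and by opening those of the stem cell. Transcription factors of the AP-1, TEAD and RUNX families bind many fibroblast enhancers, and their sites are known to lose accessibility at different times. CTCF binds DNA with zinc fingers and is found at insulators and at the borders of chromatin domains. Smarca5 is an ATPase of ISWI remodelling complexes, which space nucleosomes, and is needed for much of the binding of CTCF.

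No genome sequence was used, so the sequence behind late-closing sites could be read only in promoter windows. Few of the sites lie at gene starts. RefSeq (GRCm38.p6) gave promoter windows for 17274 of 21631 protein-coding genes. The 250 bases before the start lay wholly inside a late-closing site for 84 windows of 83 genes. The windows below belong to the outermost start of their gene, lie outside other genes, and either come from a listed fibroblast gene or hold at least 2 kinds of match. They were chosen after their values were seen, to show what the letters of such a site look like. Those shown are all on the plus strand, because no window on the minus strand was marked as an outermost start. Whether that marking misses starts on the minus strand was not checked. Minus-strand windows with 2 kinds of match, such as those of Ifi203 and Piwil4, are therefore not shown. Capitals mark matches to AP-1 (TGANTCA), TEAD (GGAATG) or RUNX (TGTGGT) on either strand.
Col3a1: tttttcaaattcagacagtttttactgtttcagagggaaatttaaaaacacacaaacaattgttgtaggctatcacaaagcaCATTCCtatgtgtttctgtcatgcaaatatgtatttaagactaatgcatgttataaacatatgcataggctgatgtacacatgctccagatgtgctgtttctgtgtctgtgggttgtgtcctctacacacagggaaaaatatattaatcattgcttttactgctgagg
Tnfaip6: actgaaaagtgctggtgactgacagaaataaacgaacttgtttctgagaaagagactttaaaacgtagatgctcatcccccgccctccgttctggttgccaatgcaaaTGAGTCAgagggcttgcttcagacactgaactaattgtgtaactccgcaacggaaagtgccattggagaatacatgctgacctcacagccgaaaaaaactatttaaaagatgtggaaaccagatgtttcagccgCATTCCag
Cpa4: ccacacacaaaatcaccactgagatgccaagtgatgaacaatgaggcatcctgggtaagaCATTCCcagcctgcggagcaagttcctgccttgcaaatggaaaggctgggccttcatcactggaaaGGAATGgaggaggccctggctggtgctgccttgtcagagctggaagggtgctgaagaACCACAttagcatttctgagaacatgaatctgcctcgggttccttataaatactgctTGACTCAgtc
Lpin3: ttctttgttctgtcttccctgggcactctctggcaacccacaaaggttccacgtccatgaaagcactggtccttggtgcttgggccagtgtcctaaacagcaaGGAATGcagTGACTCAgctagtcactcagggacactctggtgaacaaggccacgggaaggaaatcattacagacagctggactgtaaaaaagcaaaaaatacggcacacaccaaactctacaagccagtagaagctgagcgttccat
Sh2d1b1: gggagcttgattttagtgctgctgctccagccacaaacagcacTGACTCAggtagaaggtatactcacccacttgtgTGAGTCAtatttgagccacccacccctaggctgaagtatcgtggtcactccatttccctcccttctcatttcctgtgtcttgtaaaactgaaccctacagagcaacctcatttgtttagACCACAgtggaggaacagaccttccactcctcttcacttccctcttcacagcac
Sprr2k: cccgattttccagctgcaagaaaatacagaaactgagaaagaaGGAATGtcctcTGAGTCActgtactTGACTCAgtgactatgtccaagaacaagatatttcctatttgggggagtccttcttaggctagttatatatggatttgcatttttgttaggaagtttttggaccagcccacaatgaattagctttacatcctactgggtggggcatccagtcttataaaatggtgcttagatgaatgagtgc

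The Col3a1 window (chr1:45311288-45311537, plus strand, GRCm38) starts a fibrillar collagen gene. Its site was held in day 0, Thy1+, SSEA1-Thy1- and SSEA1+ cells of both shRNA groups, and with CTCF shRNA in GFP+ cells too, but in none of the day 10 and day 12 lists. The Tnfaip6 window (chr2:52037863-52038112, plus strand), before a gene for a secreted hyaluronan-binding protein, lay in a site that every list held except the GFP+ control. The Cpa4 window (chr6:30568119-30568368, plus strand), before a gene for a carboxypeptidase, was held with CTCF shRNA in all 5 populations and in both day 12 lists, and in no day 10 list. The Lpin3 window (chr2:160880420-160880669, plus strand), before a gene for a phosphatidate phosphatase of the lipin family, had the same lists apart from GFP+ cells with CTCF shRNA. Both Sh2d1b1 (chr1:170277068-170277317, plus strand), which encodes an adaptor protein of natural killer cells, and Sprr2k (chr3:92432332-92432581, plus strand), of the small proline-rich family of the skin barrier, lay in sites that no unsorted list held. The Sh2d1b1 site was also absent from SSEA1-Thy1- cells with CTCF shRNA.

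The AP-1 match was more frequent in late-closing windows than in promoters at large. It was found in 32 of 84 windows, or 38.1% (exact Clopper-Pearson 95% interval 27.7 to 49.3), against 6.18% of all 21020 promoter windows. Windows wholly inside sites open in all 5 control lists had it in 3.53% of 3764, and windows inside sites that closed on exit from Thy1+ (in the day 0 and Thy1+ lists, in neither the SSEA1-Thy1- nor the GFP+ list) in 45.7% of 70. Genes with an AP-1 match included Il11, a cytokine of fibrosis, Il1rn, the interleukin-1 receptor antagonist, Sphk1, which makes sphingosine 1-phosphate, and Sprr1a of the skin barrier. Matches to TEAD stood in 16 of the 84 late-closing windows (exact interval 11.3% to 29.1%) and in 11.6% of all windows. Matches to RUNX stood in 13 (15.5%) and in 12.2% of all windows, and matches to KLF (GGGNGTGG) in 16.7% and 17.8%. The core of the CTCF motif was found in 2 windows (2.38%) and in 3.6% of all. For these 4 motifs the share of all windows lies within the interval of the late-closing windows, so no difference was detectable with 84 windows. The ETS match (CCGGAAG) was less frequent, in 2 of the 84 (2.38%, interval 0.29 to 8.34) against 9.09% of all windows. Of the 13 motifs searched, AP-1 and ETS were those whose share of all windows lay outside the interval. The late-closing windows had a median of 49% G and C and 3 CpG, whereas all windows had 55.6% and 10, and those open in all 5 lists 64.4% and 20. A match is a string of letters, and neither binding nor base composition was tested as a reason for these shares.

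**Figure D1:**
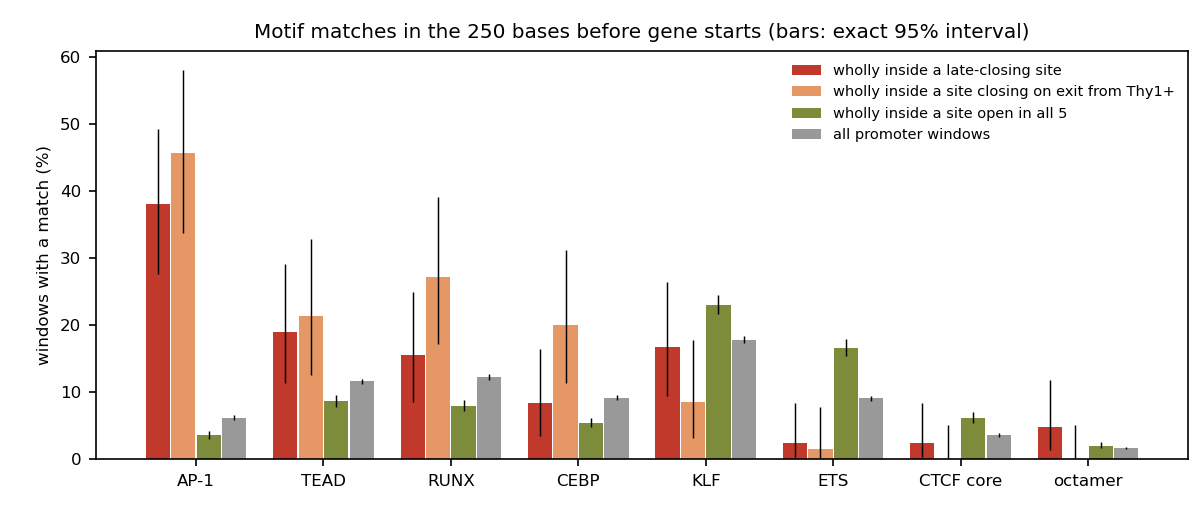
Share of promoter windows (250 bases before a gene start) with a match to 8 motifs, in percent, for windows wholly inside a late-closing site (84), inside a site closing on exit from Thy1+ (70), inside a site open in all 5 control lists (3764) and for all windows (21020). Thin lines are exact 95% intervals. The AP-1 bars of both closing classes, 38.1% and 45.7%, stand far above those of the other groups.

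The depth behind the lists is unknown, because they hold positions without read counts. After restriction to the chromosomes used, the shortest list, the day 12 control, held 43643 intervals, and the longest, Thy1+ with CTCF shRNA, 216524. In SSEA1+ cells the CTCF shRNA list stood apart from its control, with 186649 intervals against 138407. Peak positions were shared within 3 sets, namely day 0 with all sorted lists, day 10, and day 12: 44.0% to 95.6% of positions were identical within a set and 0.664% to 0.887% between sets. Lists are therefore compared within a set, and classes of sites within a list. No value has a replicate check, so no test was possible, and all intervals cover counting error over sites only. In bulk samples, fewer cells with an open site and a weaker opening in each cell cannot be told apart. Peaks at gene ends separated the cell types weakly. At day 0 the control list had a peak within 1 kb of either end of 19 of 20 matrix genes and of all 20 surface and contractile genes, but also of 18 of 20 epithelial and 19 of 20 housekeeping genes. The GFP+ control had one at 16 of the matrix and 18 of the surface genes. The day 0 list had one at 15 of 30 pluripotency genes, where the GFP+ control had one at 25. Of 14 haematopoietic and 12 endothelial marker genes the day 0 list had one at 8 each, and the GFP+ control at 7 each. The day 0 list had none at Ptprc, Gata2, Itgam, Cd3e, Adgre1, Gata1, Emcn, Tie1, Vwf or Pecam1. It had one at all the others, among them Spi1, Csf1r, Cdh5 and Kdr.

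Most late-closing sites lay well away from any GFP+ control interval. The GFP+ list was the shortest of the control lists that chose the sites, with 93365 intervals. The SSEA1+ control list held 138407, the SSEA1-Thy1- list 153991, the day 0 list 156361 and the Thy1+ list 197394. Distance does not show whether a site had signal below the peak threshold in GFP+ cells. The part that list length has in the absence of sites from the GFP+ list was not tested. Of the late-closing sites 98.3% were 1 interval of exactly 400 bp, and the widest spanned 870 bp. The nearest GFP+ control interval lay at a median distance of 8416 bp. Just inside the rule stood 38 sites with a GFP+ control interval within 100 bp, and 2224 sites (7.57%) had one within 1 kb. Just outside it, 44654 sites were in the same 3 early lists and also in the GFP+ list. Of these, 1902 (4.26%) were wider than 400 bp, so that the GFP+ interval may overlap the early ones only in part.

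In SSEA1+ control cells, the stage that the rule leaves free, 13131 late-closing sites were still held and 16236 were not. The share held was 44.7% (44.1 to 45.3), below the 52.4% of all sites. Both subsets are used below, because they differed in most lists that the rule did not use. The SSEA1-Thy1- and SSEA1+ samples came from the same days, so a site still held or not held is a comparison of lists, not of times.

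At day 0 and in Thy1+ cells, CTCF shRNA left nearly all of these sites in place. With CTCF shRNA, 94.5% of late-closing sites were held at day 0 and 97.8% in Thy1+ cells, whereas 59.2% and 80.8% of all sites were. The rule puts every late-closing site in both control lists, which held 59.4% and 75.0% of all sites, so these shares have unlike bases. The share lost, that is in the control list but not in the treated one, was 5.48% at day 0 (4.45% of all sites in the control list) and 2.16% in Thy1+ cells (8.2% of all). Since these sites had to be in 3 control lists, they are not a random draw from any of them. The sites still held in SSEA1+ control cells were lost more often at day 0, at 9.06% against 2.57% for the others, and less often in Thy1+ cells, at 1.08% against 3.03%. The direction was that of all sites, which lost 5.99% against 3.49% at day 0 and 2.03% against 16.0% in Thy1+ cells.

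SSEA1-Thy1- cells, which have shed the fibroblast surface marker, lost many of the sites with CTCF shRNA. There 77.0% of late-closing sites were held, against 61.9% of all sites. The rule puts every late-closing site in the control list, which held 58.4% of all sites, so these shares have unlike bases. Of the late-closing sites 6748 (23.0%, interval 22.5 to 23.5) were lost, against 8.74% of all sites in the control list. Of those not held in SSEA1+ control cells 6051 of 16236 (37.3%) were lost, and of those held 697 of 13131 (5.31%). All sites of the SSEA1-Thy1- control list showed nearly the same split, with 34.1% of those not held in SSEA1+ control cells and 2.73% of those held. Sites open in all 5 lists lost 1.87%.

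SSEA1+ cells showed the opposite change. With CTCF shRNA they held 92.4% of late-closing sites, against 70.2% of all sites. Of the 16236 sites missing from the SSEA1+ control, 14280 (88.0%, 87.4 to 88.4) were in the CTCF shRNA list. The same held for 46.1% of all sites missing from that control and for 53.2% of sites that closed on exit from Thy1+. These bases are unlike, because the rule puts every late-closing site in the SSEA1-Thy1- control list. That list held 23.5% of all sites missing from the SSEA1+ control and, by definition, no site of the exit class. The part that the rule has in the higher share was not tested. Of the 13131 sites in the control, 285 (2.17%) were lost, against 7.99% of all sites there. These values rest on the CTCF shRNA list that stood apart from its control, and the part that list length has in them was not tested.

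GFP+ cells with CTCF shRNA held 6427 late-closing sites, or 21.9% (21.4 to 22.4). All of them count as gained, since the rule keeps the sites out of the GFP+ control. Of all sites 39.3% were held, and of all sites outside the GFP+ control 14% were gained. The share was 27.8% for sites still held in SSEA1+ control cells and 17.1% for the others. Over all sites outside the GFP+ control the same split gave 21.1% and 9.39%. Sites that closed on exit from Thy1+ had 8.86%. Sites with a GFP+ control interval within 1 kb were held in 31.3% of cases, and the rest in 21.1%.

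**Figure D2:**
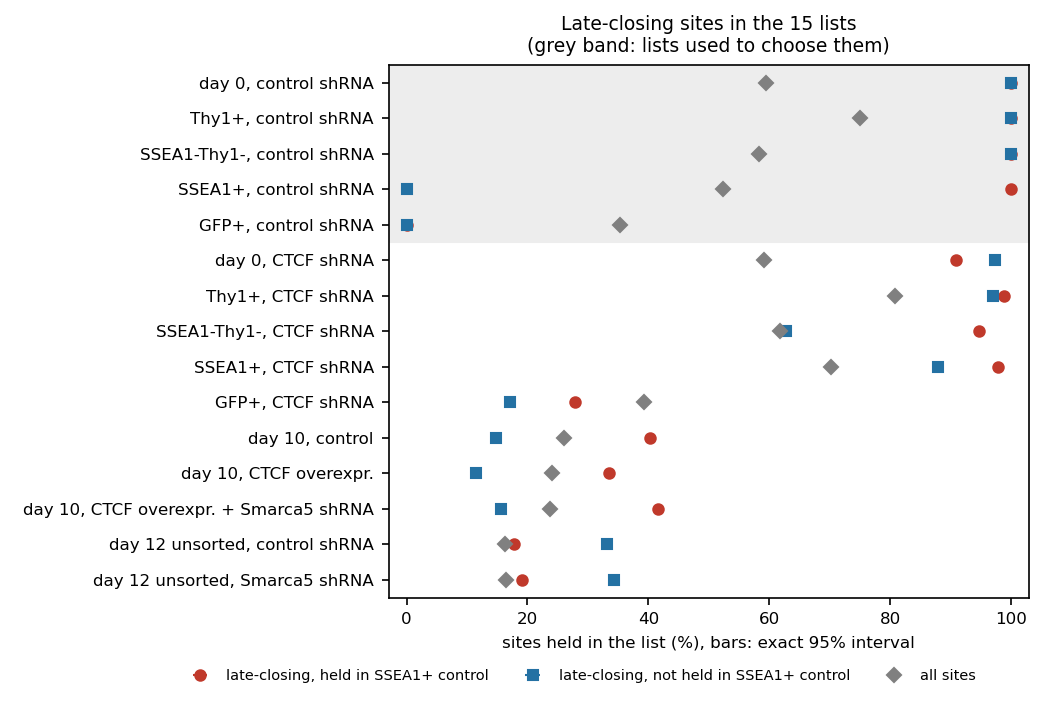
Share of sites held in each of the 15 peak lists, in percent, for late-closing sites that SSEA1+ control cells still held (13131), for those they did not (16236) and for all sites (259154). The 5 lists in the grey band chose the sites, and exact 95% intervals are narrower than the symbols. Sites held in SSEA1+ control cells lead at day 10 (40.3% against 14.8% in the control), and the order is reversed at day 12 (17.8% against 33.2%).

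In the unsorted cells at day 10, a minority of these sites was open, and CTCF overexpression was accompanied by fewer of them. The control list held 7690 late-closing sites, or 26.2% (25.7 to 26.7), close to the 26% of all sites. With CTCF overexpression 6272 (21.4%) were held, against 24.1% of all sites, and with Smarca5 shRNA added 7999 (27.2%), against 23.8%. Sites still held in SSEA1+ control cells were in the day 10 control in 40.3% of cases and the others in 14.8%. Both subsets had the lowest share with CTCF overexpression, at 33.5% and 11.5%, and the highest with added Smarca5 shRNA, at 41.5% and 15.7%.

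Site by site, 2171 of the 7690 late-closing sites in the day 10 control were lost with CTCF overexpression. This is 28.2% (27.2 to 29.3), against 15.2% of all sites in that list and 5.18% of sites open in all 5 control lists. The 1422 sites of the exit class in that list lost 48.2%. Late-closing sites not held in SSEA1+ control cells lost 35.8%, close to the 32.8% of all sites not held there. Those held lost 24.8%, against 12.6% of all sites held. The day 10 control had 5289 late-closing sites held in SSEA1+ control cells and 2401 not held, and over all sites 58788 and 8573. The bases are thus unlike. In the other direction 3.47% of late-closing sites outside the control list were gained, against 2.76% of all sites. When Smarca5 shRNA was added to CTCF overexpression, 2330 of 23095 sites (10.1%) were gained, against 4.71% of all, and 603 of 6272 (9.61%) were lost, against 16% of all. Set against the day 10 control, the combined treatment lost 11.3% of late-closing sites (16.2% of all) and gained 5.45% (2.73% of all). These 3 comparisons share their lists and are not independent of each other.

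The 3 day 10 lists can also be read together. All 3 held 5221 late-closing sites, and none of them held 20191. The control and the combined treatment, but not CTCF overexpression alone, held 1597 sites, which is 5.44% of the late-closing sites, whereas 2.36% of all sites and 2.11% of those open in all 5 lists had that pattern. The pattern of control and CTCF overexpression without the combined treatment was found for 298 late-closing sites (1.01%), against 2.62% of all sites and 6.83% of those open in all 5 lists. Late-closing sites followed the first pattern more often than the second, and sites open throughout the second more often than the first. The order seen for late-closing sites was also that of the exit class. Of its 53423 sites, 411 (0.769%) had the first pattern and 119 (0.223%) the second, and the day 10 control held 1422.

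**Figure D3:**
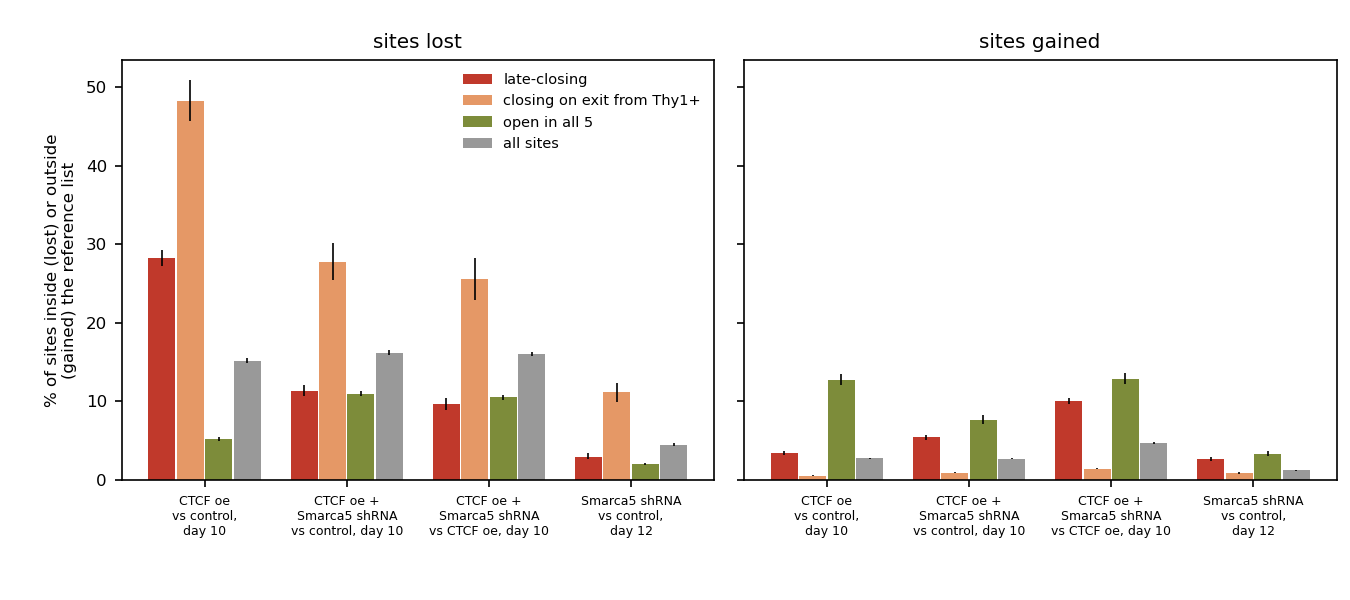
Left, share of the sites in the reference list that were absent from the treated list; right, share of the sites outside the reference list that the treated list held (percent, thin lines: exact 95% intervals), with oe for overexpression. Late-closing sites lost 28.2% with CTCF overexpression and 11.3% with Smarca5 shRNA added; at day 12 with Smarca5 shRNA they lost 2.99%.

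At day 12 the unsorted control held 7734 late-closing sites, or 26.3% (25.8 to 26.8), well above the 16.2% of all sites. Smarca5 shRNA cells held 8076 (27.5%), against 16.5% of all sites. Here the order of the subsets was the reverse of that at day 10. Sites absent from the SSEA1+ control list were held in 33.2% of cases in the day 12 control, and those in it in 17.8%. Over all sites it was otherwise, with 8.64% of those outside the SSEA1+ control list and 23.1% of those inside it. At day 10 the control list had 6.95% and 43.3% of the same sites. Of the late-closing sites 4909 were in the day 12 control alone, 4865 in the day 10 control alone, and 2825 in both. Among the first, 4165 were absent from the SSEA1+ control list, and among the second, 3696 were in it. The day 10 and day 12 cells differ in day, vector and set of peak positions, which cannot be told apart.

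Smarca5 shRNA without CTCF overexpression changed few of the sites. At day 12 it lost 231 of 7734 late-closing sites (2.99%), against 4.46% of all sites in the list. It gained 573 of 21633 (2.65%), against 1.22% of all. The subsets lost 3.29% and 2.85%, so in loss they did not differ beyond their counting intervals of 2.61 to 4.10 and 2.43 to 3.33. In gain they did differ. Sites held in SSEA1+ control cells were gained in 238 of 10794 cases (2.2%, interval 1.94 to 2.5). The others were gained in 335 of 10839 cases (3.09%, interval 2.77 to 3.43).

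Over the 10 lists outside the rule, a late-closing site was in a median of 5. A median of 10 was found for sites open in all 5 control lists and of 3 for the exit class and for all sites. The most common number was 4, for 8355 sites. Only 20 late-closing sites were in none of the 10, and 798 were in all of them. Those 798 were open in every group of the study except the GFP+ control and, for 225 of them, the SSEA1+ control.

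Late-closing sites were at gene ends less often than all sites, but more often than the other closing classes. Of all late-closing sites, 1151 (3.92%) had an end of a protein-coding gene within 1 kb, against 8.67% of all sites and 33.0% of those open in all 5 lists. The exit class had 2.69%, and sites closing before Thy1+ (in the day 0 list alone of the 5) had 2.67%. Of the 22477 sites at gene ends, 13720 were open in all 5 lists, which raises the share over all sites. Gene bodies held 54.0% of late-closing sites and 52.8% of all sites. The median distance of late-closing sites to the nearest gene end was 32001 bp. It was 27846 bp for all sites, 44662 bp for the exit class and 65611 bp for sites closing before Thy1+. Sites that SSEA1+ control cells still held were at gene ends more often than the others (4.64% and 3.34%), a difference that was larger over all sites (13.3% and 3.61%).

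Around genes of the fibroblast programme, late-closing sites took a larger part of the open sites than around most genes. For all protein-coding genes 10.4% of the sites in the gene or within 50 kb were late-closing (median over genes 8%). The list of 20 matrix genes had 126 of 584 (21.6%, median 21.3%), and 18 of these genes had at least 1 late-closing site within 10 kb, as 41.3% of all genes did. The matrix list was followed by mesenchymal transcription factors, with 77 of 425 (18.1%), fibroblast surface and contractile genes, with 114 of 655 (17.4%), TGF-beta genes, with 112 of 663 (16.9%), and Runx genes with Cbfb, with 29 of 177 (16.4%). The medians over genes were 12.1%, 17.6%, 16.4% and 15.9% in that order. Of the 20 mesenchymal factors, 9 had no late-closing site within 10 kb. At the other end were 30 pluripotency genes, with 32 of 588 (5.44%), neural markers, with 15 of 267 (5.62%), and epithelial genes, with 29 of 479 (6.05%). Sites are summed over genes, so that a site near a pair of neighbouring genes counts for both. Within 10 kb the matrix list (18.5%) no longer led, with TGF-beta genes at 19.2% and Runx genes with Cbfb at 18.5%. The rule picks sites open in fibroblasts, and so a share near fibroblast genes is partly set by it.

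Counted among day 0 sites alone, matrix genes again had the highest share and the order at the lower end changed. Late-closing sites were 29.9% of the 422 day 0 sites near matrix genes, 26.9% near mesenchymal transcription factors, 25% near TGF-beta genes and 25% near Runx genes, against 17.0% for all genes. They were 11.9% near pluripotency genes, 11.8% near housekeeping genes, 11.5% near muscle and cartilage markers, 11.2% near epithelial genes and 9.32% near neural markers. Surface and contractile genes had 24% and keratinocyte markers 20.5%, both above all genes. The exit class also took a larger part near several of these lists. It was 35.5% of day 0 sites near matrix genes, 39.7% near Runx genes and 33.3% near surface and contractile genes. For all genes it was 25.7%, and near mesenchymal transcription factors 26.2%. The larger part was not confined to fibroblast genes, with 33.1% near muscle and cartilage markers, 29.5% near keratinocyte markers and 27.95% near neural markers. Haematopoietic markers (21.2%), epithelial genes (15.4%) and housekeeping genes (13.5%) were below all genes. Of day 0 sites near matrix genes 17.3% were open in all 5 lists, and of those near housekeeping genes 60.6%. The 13 AP-1 genes themselves had 13.9% late-closing sites, below all genes, and 51.2% of their day 0 sites were open in all 5 lists.

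**Figure D4:**
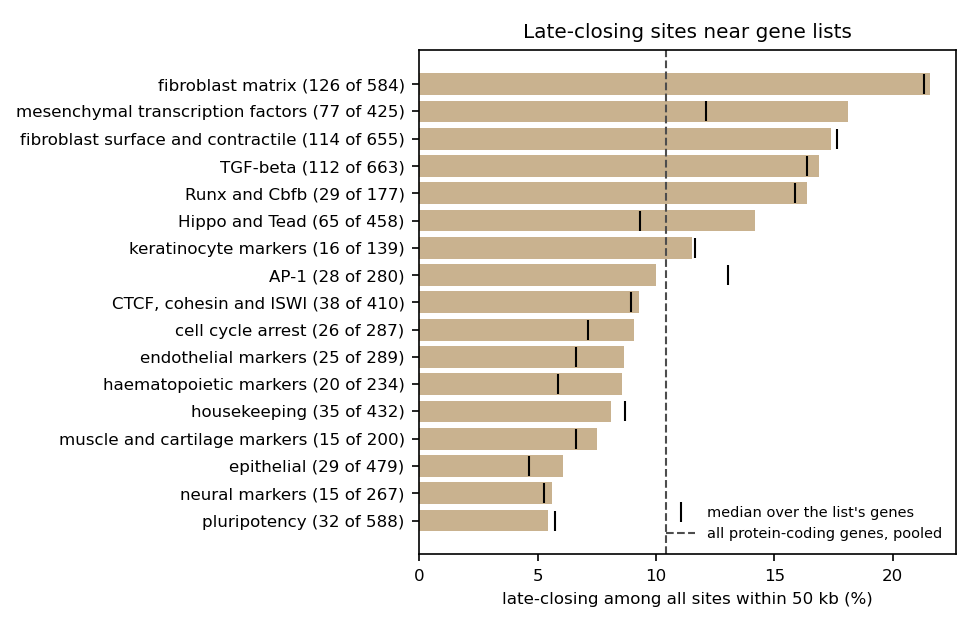
Share of late-closing sites among all sites in or within 50 kb of the genes of 17 lists, in percent, with the counts in brackets; black ticks give the median over a list's genes and the dashed line all protein-coding genes (10.4%). In this window the fibroblast matrix list has the highest share, 21.6%, and pluripotency genes the lowest, 5.44%.

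Among matrix genes, Fbn1, which encodes the microfibril protein fibrillin-1 (chromosome 2, 125300594 to 125506485), had 13 late-closing sites among 55 within 10 kb. SSEA1+ control cells held 5 of the 13, SSEA1+ cells with CTCF shRNA 11, and the day 10 and day 12 controls 5 each. Its site nearest to a gene end, at chr2:125294022-125294421, lay outside the gene and was held in all CTCF shRNA lists but that of GFP+ cells. At day 10 it was held with the combined treatment only, and at day 12 by both lists. Col5a1, for a chain of the collagen that starts fibril assembly, had 11 of 39, and SSEA1+ cells with CTCF shRNA had all 11, against 4 in the control. Its partner Col5a2 had 6 of 26, and none of the 6 was in a day 10 or day 12 list. Tnc, the matrix protein tenascin, also had 6 of 26, none of them held in SSEA1+ control cells. Col3a1 had 3 of 10 and Fn1, fibronectin, 3 of 19, while Col1a1, for the main chain of type I collagen, and Col6a2 had none.

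Among mesenchymal transcription factors, Zeb1, a repressor of epithelial genes, had 10 late-closing sites of 30. Twist2, a basic helix-loop-helix factor (chromosome 1, 91801461 to 91848034), had 7 of 16, and Tbx15, a T-box factor, 7 of 29. The Twist2 site nearest to a gene end (chr1:91799608-91800007) was held by day 0, SSEA1-Thy1- and SSEA1+ cells with CTCF shRNA and by no other list outside the rule. Prrx1, a homeobox factor of limb and skin mesenchyme (chromosome 1, 163245119 to 163315145), had 6 of 25. SSEA1+ control cells held 3 of them and all 6 were held with CTCF shRNA, while GFP+ cells with CTCF shRNA held 1. The day 10 control held 2, CTCF overexpression 1 and the combined treatment 3. Twist1 and Snai1 had 2 each, and Snai2, Osr1, Tcf21 and Foxf1 had none.

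Genes of the TGF-beta pathway, which drives matrix production in fibroblasts, held many of these sites. Among the ligands Tgfb2 had 6 of 23, Tgfb3 1 of 8, Tgfb1 none of 10 and Inhba, an activin subunit, 2 of 12. The receptors had 4 of 14 for Tgfbr1, 5 of 17 for Tgfbr2, 7 of 45 for the co-receptor Tgfbr3 and 8 of 32 for Acvr1, a type I receptor of BMP signals. Of the signal carriers, Smad3 (chromosome 9, 63646766 to 63757994) stood out with 15 of 34, whereas Smad2 had none of 10 and Smad4 3 of 17. SSEA1+ cells with CTCF shRNA had all 15 Smad3 sites and their control 4. Of the 15, 13 were present in SSEA1-Thy1- cells with CTCF shRNA, and 5 in GFP+ cells with CTCF shRNA. At day 10 the control and CTCF overexpression held 3 each and the combined treatment 5, and both day 12 lists held 7. Ltbp1, which tethers latent TGF-beta to the matrix, had 17 of 88. The inhibitory Smad7 had none of 20 and Smad6 2 of 23.

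Of the surface and contractile genes, Ddr2, a collagen receptor (chromosome 1, 169972307 to 170110836), had 9 of 36, Cald1, the actin-binding caldesmon, 9 of 54, and Ncam1, a cell adhesion molecule, 9 of 49. The Ddr2 sites were held by the day 12 control in 7 cases and by the day 10 control in 1. Its site at chr1:170111772-170112171, nearest to a gene end, was in the combined day 10 list and in both day 12 lists, but not in the other day 10 lists. Cdh2, N-cadherin, had 8 of 45. Thy1, whose product was used for sorting, had 2 late-closing sites of only 4, of which SSEA1+ control cells held 1. Pdgfra, Tagln and Mcam had none.

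The factors whose motifs were searched differed. Runx1 had 11 late-closing sites of 41 and Runx2 10 of 58, while Runx3 and Cbfb had 1 each. Runx1 had 7 of its 11 sites in the day 10 control, 8 with CTCF overexpression and 7 with the combined treatment. The Runx1 site nearest to a gene end (chr16:92828044-92828443) was held in SSEA1+ control cells, in all CTCF shRNA lists but that of GFP+ cells, at day 10 with CTCF overexpression alone, and in both day 12 lists. Tead1 had 10 of 68, of which SSEA1+ control cells held 7. Wwtr1, which encodes the TEAD partner TAZ, had 9 of 29, and none of the 9 was held in SSEA1+ control cells against 7 with CTCF shRNA. Yap1 had 3 of 22, and Tead2, Tead3 and Lats1 had none. Among AP-1 genes, Fos, Fosl1, Jund, Batf and Batf3 had 1 each and Jun, Junb, Fosb, Fosl2 and Atf3 none.

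Genes with the most late-closing sites were long. Lpp, of the zyxin family of focal adhesion proteins, led with 34 of 137 sites over its 599229 bp. SSEA1+ control cells held 16 of the 34, SSEA1+ cells with CTCF shRNA 33, and GFP+ cells with CTCF shRNA 5. Its day 10 control held 10, CTCF overexpression 5 and the combined treatment 11. Rbms3, an RNA-binding protein gene, had 32 of 156, and only 3 of these were in the day 10 control. Foxp1, a forkhead factor, had 28 of 144, Arhgap26 27 of 139, and Pde4d, a cyclic AMP phosphodiesterase, 27 of 185. Aopep had 25 of 84, Atxn1 25 of 92, Dnm3 25 of 94, Zbtb20 24 of 99, Auts2 23 of 163, Gnaq 22 of 64 and Cacna1c 22 of 99. Among these 12 genes Zbtb20 had the largest part in the day 10 control, with 13 of 24, and Auts2 and Cacna1c had the smallest counts there, with 2 each.

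Among genes with 10 or more sites, the highest share was that of Adamts16, a metalloprotease gene (chromosome 13, 70727798 to 70841845), where 15 of 27 sites (55.6%) were late-closing. SSEA1+ cells with CTCF shRNA held all 15 and their control 4. SSEA1-Thy1- cells with CTCF shRNA held 9, the day 12 control 8 and the day 10 control 3. At 50% followed 1700034J05Rik and Mxra7, which encodes a matrix remodelling associated protein, each with 5 of 10. Bag3, a co-chaperone of stressed muscle and fibroblasts, and Sardh, a mitochondrial dehydrogenase, had 6 of 13, and Nckap5l and Il1rl2, a receptor of the interleukin-36 family, 5 of 11.

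**Figure D5:**
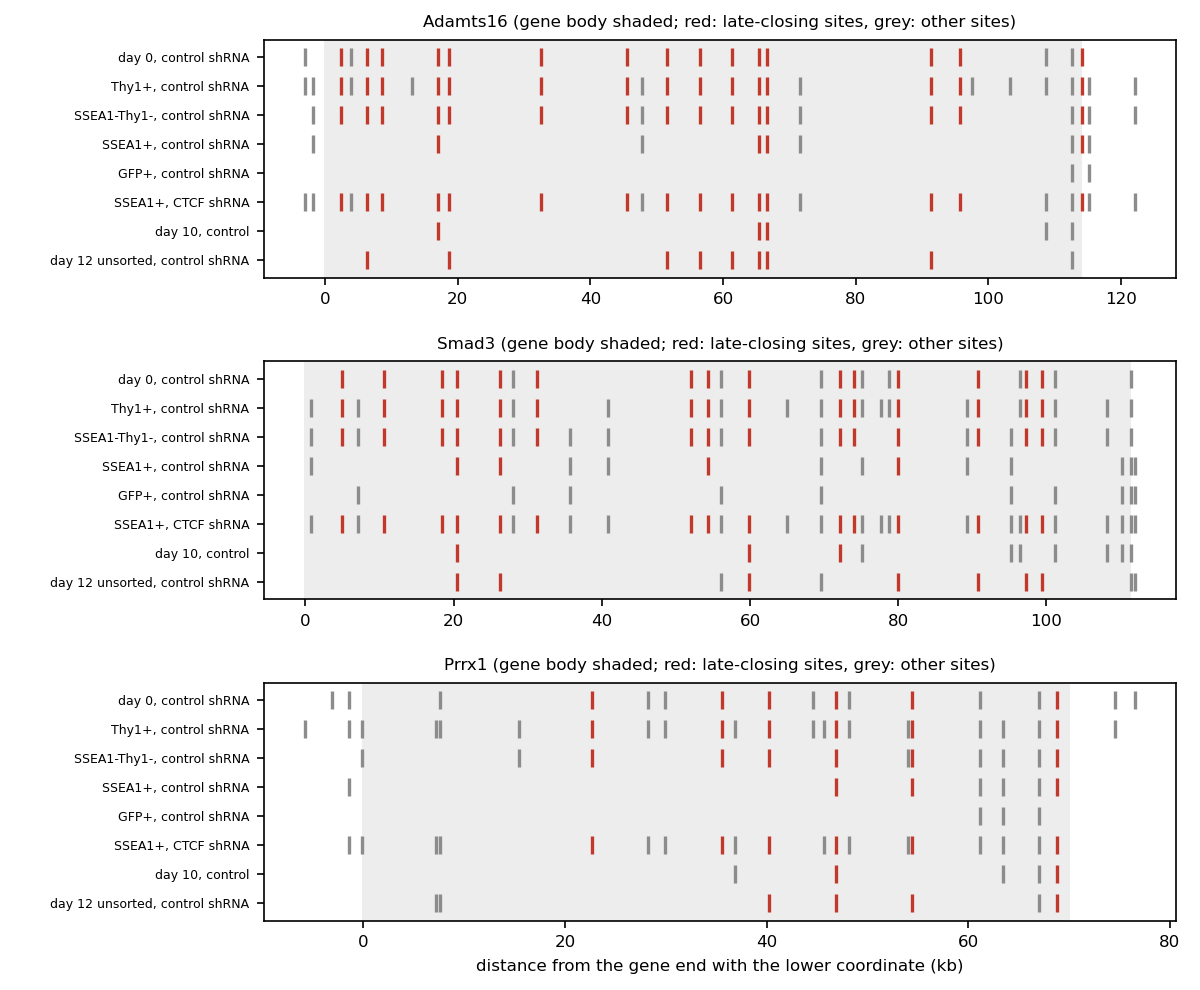
Sites at Adamts16, Smad3 and Prrx1 in 8 lists, by distance in kb from the gene end with the lower coordinate; each tick is a site held in that list, red ticks are late-closing sites and grey ticks other sites, and the gene body is shaded. All 15 late-closing sites of Adamts16 are present in SSEA1+ cells with CTCF shRNA, and 4 in SSEA1+ control cells.

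Other named genes had few late-closing sites. Of the pluripotency genes Nanog had 1 of 6 and Pou5f1 1 of 11, and 22 of the 30 had none. Ctcf had none of 5 sites and Smarca5 none of 4, whereas the cohesin loader gene Nipbl had 3 of 22, and Bptf, of an ISWI complex, 3 of 26. Rb1, which restrains the cell cycle, had 3 of 23, all held in SSEA1+ control cells. Markers of other cell types had such sites too. Of 12 endothelial markers 8 had at least 1 within 10 kb, led by the factor gene Erg with 6 of 26. Near keratinocyte markers 11.5% of sites within 50 kb were late-closing (16 of 139), against 10.4% for all genes, with 3 of 22 at Trp63. Neural Map2 had 7 of 41. None of the 6 Erg sites was held in SSEA1+ control cells, and all 6 were with CTCF shRNA. Ywhaz had the most among housekeeping genes, with 3 of 18.

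Some loci gathered many late-closing sites. With gaps of up to 25 kb the sites formed 17568 clusters, of which 11353 were single sites. There were 706 clusters of 5 or more, with 4438 sites. The largest, with 23 late-closing sites of 48 over 198407 bp, covered Col5a1 and its flank. SSEA1+ control cells held 5 of the 23, SSEA1+ cells with CTCF shRNA 22, the day 10 control 3 and the day 12 control 8. It was followed by 21 of 52 at Col4a1 and Col4a2, the neighbouring genes of basement membrane collagen, 18 of 29 at Adamts16 and 17 of 30 at Prrx1 and its flank. At Col4a1 and Col4a2, 9 of the 21 were in the day 10 control and 7 in GFP+ cells with CTCF shRNA. At Prrx1 the day 10 control held 6 of the 17, CTCF overexpression 3, and the combined treatment 6. The gap and these loci were chosen after the values were seen.

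MicroRNA genes were among the neighbours. Of 1005 hairpins in the RefSeq table on these chromosomes, 279 (27.8%) had a late-closing site within 10 kb, 17 had at least 3, and the most was 4. Among those with 4 were Mir431, Mir433 and Mir127, which lie side by side in the imprinted Dlk1-Dio3 region of chromosome 12 and share their sites. SSEA1+ control cells held 2 of the 4, SSEA1+ cells with CTCF shRNA all 4, and neither the day 10 nor the day 12 control any. Mir199a-2 and Mir214 lie inside Dnm3 and are made from the antisense transcript Dnm3os, known for its role in mesenchyme. Each had 3 late-closing sites, all held in SSEA1+ cells of both shRNA groups, 1 in the day 10 control and 2 in the day 12 control. Their mature sequences are shown to identify these microRNAs. Capitals mark the seed, bases 2 to 8, and the 10 sequences have 10 different seeds.
mmu-miR-199a-5p: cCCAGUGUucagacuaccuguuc
mmu-miR-199a-3p: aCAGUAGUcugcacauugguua
mmu-miR-214-5p: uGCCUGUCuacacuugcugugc
mmu-miR-214-3p: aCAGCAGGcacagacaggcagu
mmu-miR-127-5p: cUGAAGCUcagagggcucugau
mmu-miR-127-3p: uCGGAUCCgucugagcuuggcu
mmu-miR-431-5p: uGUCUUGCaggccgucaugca
mmu-miR-431-3p: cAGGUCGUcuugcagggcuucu
mmu-miR-433-5p: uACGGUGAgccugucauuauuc
mmu-miR-433-3p: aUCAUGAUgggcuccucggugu
The peak lists give open chromatin near these hairpins and no level of the microRNAs.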

How the data were processed

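Peaks were deposited as 15 lists of intervals, 1 per group of 2 or 3 samples. Trimming, alignment, duplicate handling and peak calling tools (Trim Galore with cutadapt, Bowtie2, Picard, SAMtools, MACS2, and FastQC) and the build mm10 (GRCm38) are named per the submitters' processing notes. No source used here gives their versions, the thresholds, any shift of reads for the transposase, or how samples were pooled. The deposited score is 0 throughout, so peaks could not be ranked, and depth is unknown. Sites were built from the 5 control lists with a minimum overlap of 1 bp (Python 3.11.15, pandas 2.3.3, SciPy 1.17.1). The code was tested on 20000 simulated sites. Genes and promoters come from RefSeq tables (GRCm38.p6). Gene ends were used because the gene table gives no strand, and the promoter table leaves out some genes, among them all on chromosome 18. No genome sequence was used, so motifs were searched in promoter windows only, in place of the sites themselves.

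Named genes were the 12 with most late-closing sites within 10 kb, the 8 with the highest share among genes with 10 or more sites (ties by count), up to 4 per list with 3 or more, and Thy1, Pou5f1, Nanog, Ctcf and Smarca5. A gene that this rule names is not reported here. Genes of the 17 lists with fewer sites, added to complete a family, were named after their values were seen. The late-closing sites, gene lists and motifs were chosen with earlier results of these data known.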

Additional observations from a re-analysis of the deposited data

How the results depend on the processing

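With 1 list per group, no alternative could carry a test. The number of late-closing sites was 22940 to 30072 under the alternatives that keep the demand for SSEA1-Thy1- cells, and 82790 without it, since the larger exit class then enters. Without that demand the share held was 18.3% in SSEA1+ control cells, 67.8% in SSEA1+ cells with CTCF shRNA, 11% in the day 10 control and 12.6% in the day 12 control, and the loss with CTCF overexpression was 31.4%. With an overlap of at least 200 bp, the day 10 control held 24.3% and the day 12 control 24.5%. Without the demand for Thy1+ cells, SSEA1+ cells with CTCF shRNA held 91.5% and the day 12 control 25.8%. In an alternative added after seeing the data, sites also absent from GFP+ cells with CTCF shRNA, the shares were 41.3% in SSEA1+ control cells, 91.6% in SSEA1+ cells with CTCF shRNA, 22.9% in the day 10 control and 25.1% in the day 12 control, and the loss was 32.5%. The subsets kept their order at day 10 in every alternative. At day 12 it was kept in all but the alternative without the demand for SSEA1-Thy1- cells, where 16.1% of sites in the SSEA1+ control and 11.8% of the others were held. The gene end share was 8.18% within 2.5 kb. Identical intervals, no GFP+ control interval within 1 kb, sites of at most 800 bp and chromosomes 1 to 19 left these shares within their counting intervals, except that 21.1% were held in GFP+ cells with CTCF shRNA where no GFP+ control interval lay within 1 kb. The matrix list had 18.5% within 10 kb and 19.4% within 100 kb. Of the other lists, pluripotency went to 3.59%, cell cycle arrest to 4.72% and AP-1 to 6.02% within 10 kb, and Runx with Cbfb to 12.9% within 100 kb. The AP-1 match share was 35.7% in the central 200 bases. No paired analysis was possible because each group has 1 pooled list.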

Other observations

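The X chromosome had a smaller share of late-closing sites than any autosome. They were 7.5% of its 7496 sites (6.91 to 8.12), against 10.6% to 12.2% on chromosomes 1 to 19, and 12.5% of its day 0 control sites, against 17.5% to 21.1%.

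The next site along the chromosome after a late-closing site was late-closing in 14.5% of cases, where 11.3% of all sites are. The other classes exceeded their own share of all sites by more, with 13.9% against 7.86% for sites closing before Thy1+, 27.1% against 20.6% for the exit class and 26.7% against 16.0% for sites open in all 5 lists. Among the 4249 such pairs, the next site was held in SSEA1+ control cells in 50.5% of cases when the first was, and in 37.5% when the first was not.

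Some promoter windows lay in late-closing sites that all 10 lists outside the rule held. Their genes include Il1rn, Tnfaip6, Sprr1a, Cavin2, of the caveolar coat, and Tmem176a, and these were singled out after their values were seen.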
